A study of Mus musculus with 4 samples.

Results

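Scgb1a1, Scgb3a1 and Scgb3a2 are 3 genes of the secretoglobin family, followed here cell by cell in lungs of mice with HKP1 tumours, with or without irradiation. They were taken by name, and all 3 are among the 20640 genes of the tables. Scgb1c1, the fourth family gene in these tables, is given beside them. HKP1 is a mouse lung adenocarcinoma line. Each group came from female C57BL/6 mice of 8 weeks, 4 per treatment with no separate library for each, that had received 150000 HKP1 cells through the tail vein and were assigned to groups by bioluminescence on day 6. On each of 3 days, day 10 to day 12, the groups received 0 Gy (a mock treatment) or 4 Gy from a small-animal irradiator. The harvest followed the final radiation day by 24 to 48 h, and DAPI-negative (live) cells were divided by CD45, the surface protein of leukocytes. The result was 4 libraries of 10x Genomics 3′ chemistry, 1 for each dose and sort, so that the CD45-negative libraries hold epithelium, vessel, stroma and tumour and the CD45-positive ones leukocytes. Control and irradiated groups alike bore tumours. The series title names Scgb1a1-expressing club cells, and libraries of the same sort are compared between the doses.

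Secretoglobins are small secreted proteins of mucosal surfaces. Scgb1a1 encodes the club cell secretory protein, the most abundant product of the club cells that line the small airways and renew the bronchiolar epithelium after injury. Scgb3a2 is a further club cell product, and Scgb3a1 is made mainly by secretory cells of larger airways, where mucus and defence proteins are also made. Club cells also carry detoxifying enzymes such as Cyp2f2, a cytochrome P450, and they are neighbours of the ciliated cells, which are marked by Foxj1.

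By the GENCODE vM21 annotation of GRCm38 (mm10), Scgb1a1 (ENSMUSG00000024653.2) lies at chr19:9083636-9087958 on the minus strand with 3 exons. Scgb3a1 (ENSMUSG00000064057.12) lies at chr11:49663610-49665118 on the plus strand with 3 exons. No annotated gene overlaps either of them, or Scgb3a2. The gene before Scgb3a1 on the same strand is Flt4, which encodes a receptor of lymphatic and other endothelium and ends 10870 bp away. On the other side Cnot6 lies 6384 bp away, on the minus strand. The coding sequences of Scgb1a1 and Scgb3a1, which differed in direction in the CD45-negative libraries, are printed from the GENCODE transcripts, to show how far they differ in letters. Scgb1a1 is whole, with start and stop codons in capitals, and Scgb3a1 is given by its first 300 of 315 bases, with the start codon in capitals.
Scgb1a1: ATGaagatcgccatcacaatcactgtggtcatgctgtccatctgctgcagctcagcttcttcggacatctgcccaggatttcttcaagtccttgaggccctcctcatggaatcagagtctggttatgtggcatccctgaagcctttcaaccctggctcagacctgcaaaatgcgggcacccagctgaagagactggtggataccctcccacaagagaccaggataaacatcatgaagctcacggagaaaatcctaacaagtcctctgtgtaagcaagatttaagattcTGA
Scgb3a1: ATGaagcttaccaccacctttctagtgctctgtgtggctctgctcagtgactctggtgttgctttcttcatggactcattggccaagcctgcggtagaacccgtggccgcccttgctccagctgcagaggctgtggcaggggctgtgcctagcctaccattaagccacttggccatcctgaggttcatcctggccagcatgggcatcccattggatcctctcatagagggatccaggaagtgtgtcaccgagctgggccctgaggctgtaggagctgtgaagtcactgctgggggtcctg
Aligned end to end, Scgb1a1 and Scgb3a1 were identical at 62.2% of the positions where neither had a gap (173 of 278). By that measure Scgb1a1 and Scgb3a2 were identical at 67.8% (194 of 286), and Scgb3a1 and Scgb3a2 at 63.8% (199 of 312). Bases opposite a gap are left out, and the coding sequences have 291 (Scgb1a1), 315 (Scgb3a1) and 420 (Scgb3a2) bases. Sequences and exon counts are those of 1 transcript per gene (Scgb1a1-201, Scgb3a1-201 and Scgb3a2-201), where Scgb3a1 has 2 coding transcripts and Scgb3a2 has 3. The longest stretch that transcripts of any pair of them shared was 12 bases, between Scgb1a1 and Scgb3a1. Values are unique molecular identifiers (UMIs), 1 per captured transcript, counted near the 3′ end, so that they do not scale with transcript length.

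The libraries held 12448164 to 36423571 UMIs over 4313 to 9608 barcodes, with a median of 1894 to 3096 UMIs per barcode. After removal of called doublets, 5693 and 4164 CD45-negative and 5180 and 9000 CD45-positive cells were left at 0 Gy and 4 Gy. Ptprc, which encodes CD45, stood at 12.9 CPM (counts per 1000000 UMIs of the library) at 0 Gy and 8.99 CPM at 4 Gy among CD45-negative cells. In CD45-positive cells it stood at 859.5 and 916 CPM. Pairs of libraries shared 3 to 17 barcode sequences, and 0 of the secretoglobin-rich barcodes described here were among them. Since each group is 1 library, dose, library and harvest cannot be told apart, no test was possible, and brackets give exact 95% intervals of counting error alone. In summed UMIs, fewer cells of a type and less RNA per cell cannot be told apart either.

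In the CD45-negative libraries Scgb1a1 and Scgb3a2 stood higher at 4 Gy and Scgb3a1 lower. Scgb1a1 stood at 641 CPM at 0 Gy and 1093 CPM at 4 Gy, a ratio of 1.71 [1.66 to 1.75]. Scgb3a2 (ENSMUSG00000038791.14, on the plus strand of chr18:43764289-43767399, with 2 exons in Scgb3a2-201) stood at 43.9 and 148 CPM, a ratio of 3.37 [3.07 to 3.7]. Scgb3a1 stood at 125 and 59.7 CPM, a ratio of 0.479 [0.438 to 0.523]. Past a fold of 1.5 on the scale of CPM + 5, 2 of the 3 genes were thus higher and 1 lower, where 2.01% of 18465 genes measured were higher and 0.969% lower.

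In the CD45-positive libraries all 3 were near 0 at 0 Gy and far higher at 4 Gy. Scgb1a1 stood at 3.1 and 142 CPM, a ratio of 45.9 [36.1 to 59.2]. Scgb3a2 had 4 UMIs at 0 Gy and 502 at 4 Gy, a ratio of 86.4 [33.5 to 318]. Scgb3a1 had 2 and 133 UMIs, a ratio of 45.8 [12.4 to 382]. Among 19018 genes measured there, 1.21% were past that fold upward and 0.273% downward, and all 3 secretoglobins were among them.

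These sums rested on very few cells. At 0 Gy, 1 of 5693 CD45-negative cells held 94.5% of all Scgb1a1 UMIs, 91.5% of all Scgb3a1 UMIs and 96.3% of all Scgb3a2 UMIs. At 4 Gy the leading CD45-negative cell held 25.9% of Scgb1a1, and the leading 6 cells held 90.7%. In the CD45-positive library of 4 Gy, 1 cell held 73% of Scgb1a1 and 2 cells 92.6%. Only in the CD45-positive library of 0 Gy was there no such cell, with 68 Scgb1a1 UMIs spread over 45 cells. Without the barcodes above 10000 CPM of Scgb1a1 or Scgb3a2 with at least 10 UMIs of it (2, 12, 0 and 2 cells of CD45-negative at 0 Gy and 4 Gy and CD45-positive at 0 Gy and 4 Gy), a choice made after the values were seen, the CD45-negative ratios were 2.8 [2.48 to 3.16] for Scgb1a1, 4.29 for Scgb3a2 and 0.895 for Scgb3a1. The CD45-positive ratios were then 3.4 [2.62 to 4.48] for Scgb1a1 and 6.54 for Scgb3a2.

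**Figure D1:**
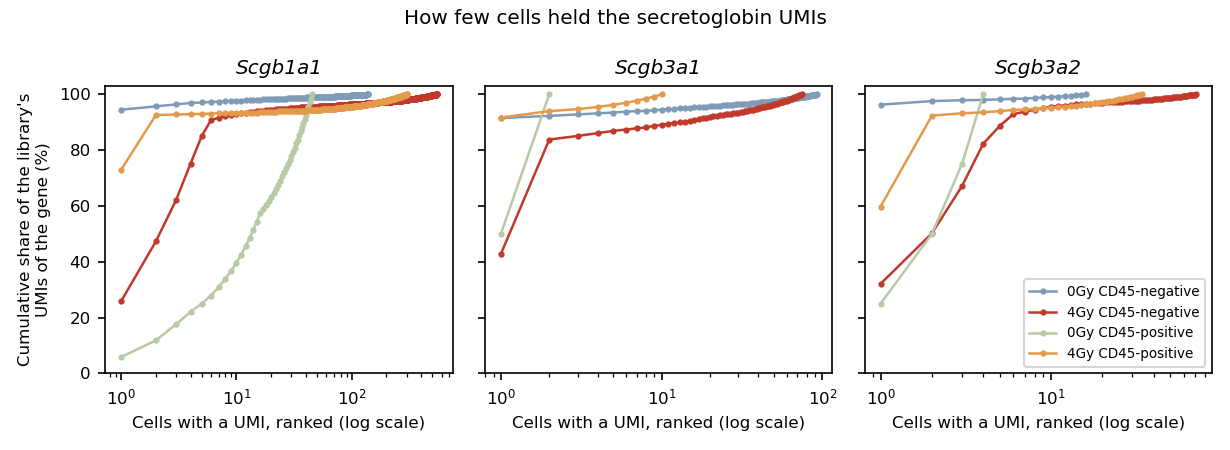
Cumulative share of a library's UMIs of Scgb1a1, Scgb3a1 and Scgb3a2 (vertical axis, %) over the cells that held any, ranked from the richest (horizontal axis, log scale), with 1 line per library and doublets left out. The 0 Gy CD45-negative lines start above 90% at the first cell and the 4 Gy CD45-negative line of Scgb1a1 at 25.9%. Among the Scgb1a1 lines only that of 0 Gy CD45-positive cells, from 5.88%, climbs gradually. For Scgb3a1 and Scgb3a2 that library had just 2 and 4 cells with a UMI.

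Cells above fixed levels of a gene within the cell show the same. Above 100 CPM of Scgb1a1, which in these cells can be a single UMI, there were 126 cells (2.21% [1.85 to 2.63]) at 0 Gy and 513 (12.3% [11.3 to 13.4]) at 4 Gy in the CD45-negative libraries. In the CD45-positive libraries there were 33 (0.637%) and 247 (2.74%). Above 10000 CPM there were 2 and 12 CD45-negative cells and 0 and 2 CD45-positive ones, and after each cell was thinned to 1000 UMIs the counts were 2, 8, 0 and 2. The 0 of 5180 CD45-positive cells at 0 Gy allows a share of up to 0.0712%. Above 50000 CPM there were 1 and 8 CD45-negative cells and 0 and 2 CD45-positive ones.

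For Scgb3a1 the number of cells did not differ in the way that the sums did. Above 100 CPM there were 92 cells (1.62% [1.3 to 1.98]) at 0 Gy and 71 (1.71% [1.33 to 2.15]) at 4 Gy in the CD45-negative libraries, and 1 and 8 in the CD45-positive ones. Above 10000 CPM there were 1 and 2 CD45-negative cells. Scgb3a2 was the rarest, with 14 and 63 CD45-negative cells above 100 CPM, 1 and 6 above 10000 CPM, and 0 and 29 CD45-positive cells above 100 CPM. Thinned to 1000 UMIs, Scgb1a1 had a UMI in 1.05% and 5.83% of CD45-negative cells and Scgb3a1 in 0.897% and 0.894% (unthinned 2.44%, 13.1%, 1.62% and 1.8%, with 564 and 250 cells left out as too shallow).

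**Figure D2:**
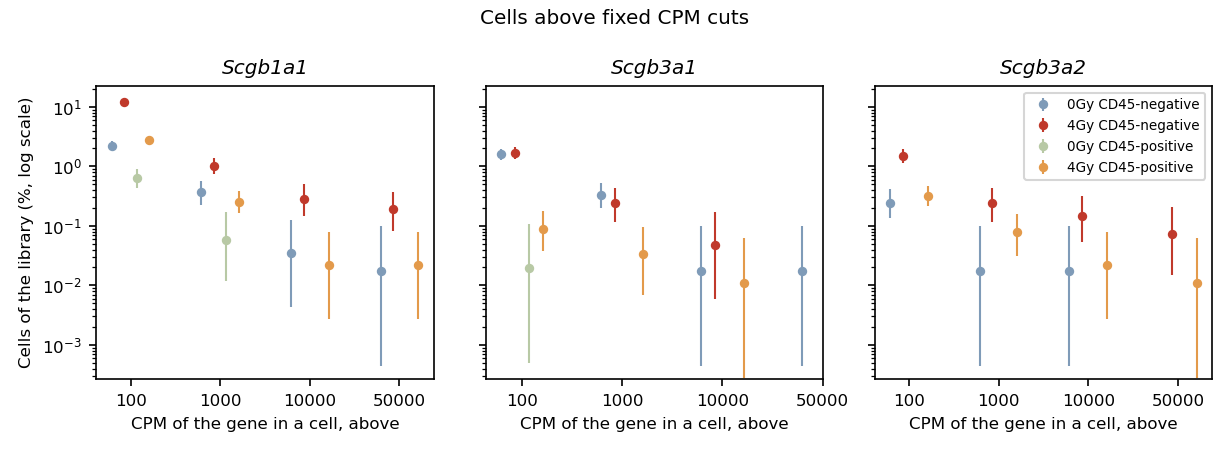
Share of each library's cells (vertical axis, %, log scale) above 100, 1000, 10000 and 50000 CPM of each gene (horizontal axis), with exact binomial 95% intervals and cuts with 0 cells left out. For Scgb1a1 the 4 Gy points lie above the 0 Gy points of the same sort at each cut, while for Scgb3a1 the CD45-negative points of both doses lie close together at 100 CPM (1.62% and 1.71%).

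The barcodes that held most of the secretoglobins were of several kinds. The richest, in the CD45-negative library of 0 Gy, had 8461 Scgb1a1, 1594 Scgb3a1 and 591 Scgb3a2 UMIs among 20817, which is 51.1% of its RNA. It had all 15 club markers, none of 14 ciliated markers and all 6 goblet markers, with 46 UMIs of Muc5b, the airway gel-forming mucin, 151 of Bpifa1, an antimicrobial protein of the upper airways, and 34 of the lectin gene Reg3g. It also had 69 UMIs over all 10 endothelial markers, whose part in its values was not tested. The other rich barcode at 0 Gy had 106 Scgb1a1 UMIs beside 1624 of Sftpc, the alveolar type II surfactant gene, and 0 of Scgb3a1 and Scgb3a2.

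At 4 Gy the leading CD45-negative barcodes had 3302 and 2737 Scgb1a1 UMIs among 15519 and 12353. Both carried all 14 ciliated markers together with 15 and 14 club markers. Their doublet scores stood at percentiles 28.6 and 34.1 of the library, and whether each is 1 cell was not tested. The next had 1895 Scgb1a1 UMIs among 3617 with 313 of Scgb3a2, 10 club markers and none of the ciliated or endothelial ones. Secretoglobins made up 61% of its RNA. Others had 1670 (12 club and 10 endothelial markers), 1259 (8 club, 14 ciliated and 10 endothelial markers) and 719 (7 club and 8 endothelial markers) Scgb1a1 UMIs. In the CD45-positive library of 4 Gy, 1 barcode had 3307 Scgb1a1, 122 Scgb3a1 and 300 Scgb3a2 UMIs among 9939 with all 15 club markers and 1 Ptprc UMI. The other had 889, 3 and 164 among 1672, 63.2% of its RNA, with 7 club markers and 0 Ptprc UMIs. Both leading barcodes of the CD45-positive sort thus carried club markers and next to no RNA of CD45.

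Scgb3a1 divided these barcodes along with the goblet markers, a split looked for after the values were seen. Of 9 barcodes with at least 500 Scgb1a1 UMIs, 4 had at least 100 Scgb3a1 UMIs (1594, 298, 286 and 122), and these had 3 to 6 of 6 goblet markers with 25 to 250 UMIs, Muc5b among them at 7 to 46 UMIs. The other 5 had 0 to 3 Scgb3a1 UMIs and 0 or 1 goblet marker, with Muc5b at 0 in each. The former were the deeper ones, at 9939 to 20817 UMIs against 1672 to 16398. Scgb3a2 did not follow this split: Scgb1a1 stood 10.4 to 14.3 times over Scgb3a2 in the former and 3.01 to 126 times in the others. Since the barcodes come from 3 libraries and only 1 of the 4 is from 0 Gy, the split is a description of single cells, not of a dose.

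**Figure D3:**
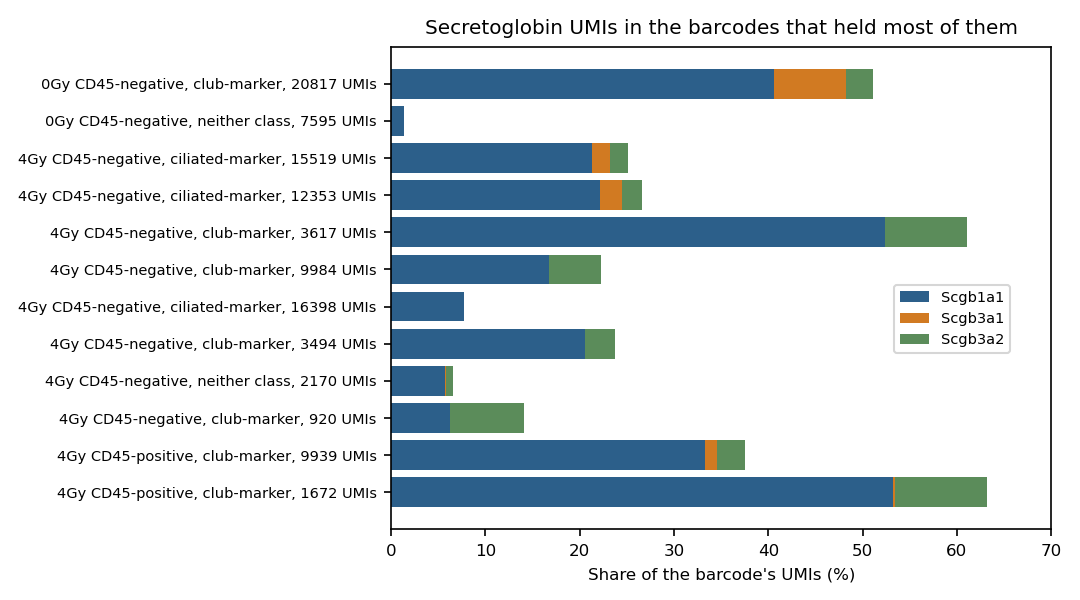
Share of each barcode's UMIs (horizontal axis, %) that were Scgb1a1, Scgb3a1 and Scgb3a2, for the 12 barcodes kept that passed 10000 CPM of Scgb1a1 or Scgb3a2 and had at least 50 UMIs of it (rows, named by library, by marker class and by total UMIs). A ciliated-marker barcode had at least 7 ciliated markers, whatever its club markers. The 2 leading 4 Gy barcodes are in that class but held more UMIs of club than of ciliated markers (299 against 108 and 262 against 90). Scgb3a1, the middle part of a bar, is wide only in the 0 Gy barcode and is absent or thin in most of the 4 Gy ones.

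No cluster carried club markers alone at any resolution tried, so that club cells could be counted only cell by cell. Cells with at least 7 of 15 club markers, fewer than 7 ciliated ones and more UMIs of club markers than of any other list, a rule set after the data were seen, numbered 2 (0 Gy) and 6 (4 Gy) among CD45-negative cells. Among CD45-positive cells they numbered 0 and 2. The CD45-negative shares were 0.0351% and 0.144%, a ratio of 4.1 [0.733 to 41.6], which includes 1. They did not group together: the richest 0 Gy barcode and 2 of the 4 Gy ones fell in a cluster led by tumour genes, and others in an unnamed cluster with alveolar type II and club markers. Basal-cell markers summed to 2021 and 2620 CPM in these cells and endothelial markers to 2491 and 2799 CPM, and their part in the values was not tested. At 0 Gy the basal-cell markers lay in 1 of the 2 cells, at 8130 CPM, and that cell had 145 CPM of Scgb1a1. It counts as a club-marker cell in the shares above. At 4 Gy the basal-cell markers reached 8979 CPM in a cell, and 1 of the 6 cells had 0 UMIs of Scgb1a1. Those cells count in the shares too.

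Within these few cells the balance of the 3 genes differed between the libraries. Scgb1a1 stood at 305432 CPM at 0 Gy and 129504 CPM at 4 Gy in CD45-negative cells, where 1 of the 2 cells at 0 Gy had 406447 CPM and the other 145, and the 6 cells at 4 Gy ran from 0 over a median of 114612 to 523915 CPM. The ranges overlap. Scgb3a1 made up 15% [14.3 to 15.7] of the UMIs of all 3 at 0 Gy, 0.037% [0.00448 to 0.134] at 4 Gy in CD45-negative and 2.61% [2.18 to 3.1] in CD45-positive cells. Scgb3a2 made up 5.56%, 19.4% and 9.7%. As 1 cell sets the 0 Gy value, these shares describe cells and not a group. Of 741 genes measured in these sums, 56.7% were at least 1.5-fold higher at 4 Gy and 12.6% lower. Cdkn1a, the p53-driven gene of the cell-cycle inhibitor p21, had 0 UMIs in the 2 cells at 0 Gy and 26 in the 6 at 4 Gy, with 6, 9 and 9 in the 3 of them richest in Scgb1a1. The 2 in the CD45-positive library had 0.

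Ciliated-like cells, the airway class that did form clusters, held more secretoglobin UMIs in the 4 Gy library. They numbered 20 (0.351%) at 0 Gy and 35 (0.841%) at 4 Gy among CD45-negative cells, a ratio of 2.39 [1.34 to 4.37], and 0 and 2 among CD45-positive cells. The gate first planned took airway cells instead cell by cell, by at least 3 club or 3 ciliated markers. With it the ratio of shares was 1.12 and that of all 3 secretoglobins within those cells 1.37, against 32.5 in the ciliated-like clusters. The ciliated-like cells had 14 of 14 ciliated markers at both doses and 12 and 15 of 15 club markers. Scgb1a1 stood at 716 CPM of the class at 0 Gy and 20437 CPM at 4 Gy, a ratio of 28.6 [23.7 to 34.6]. Scgb3a2 had 2 and 591 UMIs, a ratio of 129 [35.5 to 1065]. Scgb3a1 had 0 UMIs in 20 cells and 593 in 35, at least 86.1-fold higher against a floor of 3 UMIs over the class.

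Most of that came from the pair of leading barcodes, but Scgb1a1 was higher without them too. Without the 2 cells richest in secretoglobins in each library, Scgb1a1 stood at 204 and 4394 CPM, a ratio of 21.6 [15 to 32.3], of which 1 cell held 1259 of 1498 UMIs. The per-cell median, which no single cell sets, was 130.3 CPM at 0 Gy (1 UMI) and 437 CPM at 4 Gy (5 UMIs). Cells with a Scgb1a1 UMI were 13 of 20 (65%) and 32 of 35 (91.4%), at median depths of 7804 and 10874 UMIs. Thinned to 1000 UMIs they were 30% [11.9 to 54.3] and 42.9% [26.3 to 60.6], and these intervals overlap. Scgb3a2 had a UMI in 1 of 20 and 14 of 35 cells and Scgb3a1 in 0 of 20 and 5 of 35, where 0 of 20 allows up to 16.8%. Endothelial markers summed to 1525 and 2581 CPM and goblet markers to 6.22 and 352 CPM in the class, and their part in the difference was not tested.

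Other club genes in ciliated-like cells were also higher at 4 Gy more often than lower. Of 7801 genes measured (at least 10 UMIs over both libraries), 19.2% were at least 1.5-fold higher and 13.8% lower, with a median log2 ratio of 0.01 on CPM + 5. Of 20 defence and secreted proteins measured, 13 were higher and 0 lower, with a median log2 ratio of 2.68, or 0.74 with the 11 genes that had 0 UMIs at 0 Gy set at their lower bound. Among them Bpifa1 had 0 and 94 UMIs, Retnla, a resistin-like secreted protein, 0 and 64, and Bpifb1 0 and 63. All 94 Bpifa1 UMIs were in the pair of leading barcodes (42 and 52), and 56 of the 64 Retnla UMIs were in 1 other cell, so that these values describe 3 of the 35 cells. Gsn, the actin-severing gelsolin, stood at 1575 and 2511 CPM, a ratio of 1.59 [1.39 to 1.84]. It was also past that fold upward in endothelial-like cells, though not outside the epithelium as a whole. The abundant Wfdc2, a protease inhibitor of airway fluid, stood at 3398 and 4704 CPM, a ratio of 1.38 [1.26 to 1.53], and Anxa2 at 1649 and 1321 CPM. Without the 2 richest cells of each library, 11 were measured, 4 higher and 1 lower, with a median of 0.48, beside 19.9% and 13.1% of all genes.

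Of 20 detoxifying enzymes measured, 8 were higher and 0 lower, with a median log2 ratio of 0.35. Cyp2f2 stood at 766 and 2039 CPM, a ratio of 2.66 [2.2 to 3.25]. Aldh1a1, a retinal dehydrogenase, stood at 529 and 1060 CPM, a ratio of 2 [1.58 to 2.56], and Ephx1, which opens epoxides, at 106 and 239 CPM, a ratio of 2.26 [1.33 to 4.04]. Cyp2a5 and Gsto1 had ratios of 1.69 [1.07 to 2.77] and 1.64 [1.15 to 2.4]. The most abundant, Cbr2, a carbonyl reductase, stood at 8129 and 5683 CPM, a ratio of 0.699 [0.652 to 0.75]. Gstm1 stood at 1631 and 1537 CPM and Ces1d at 1008 and 1207 CPM. Without the 2 richest cells of each library 5 of 19 were higher, and Cyp2f2 had a ratio of 2.09 [1.69 to 2.59]. Aldh1a1 and Ephx1 were still among the higher ones, but Cyp2a5 and Gsto1 were not. Ephx1 was the only 1 of these enzymes also past the fold upward outside the epithelium and in endothelial-like cells of the CD45-negative libraries.

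Of 17 regulators of secretoglobin genes and club cell fate measured, 5 were higher and 2 lower, with a median log2 ratio of 0.15, close to the background. Nfib, a nuclear factor of lung development, stood at 193 and 317 CPM, a ratio of 1.64 [1.1 to 2.53], and Hey1, a target of Notch, at 1 and 30 UMIs, a ratio of 13.1 [2.17 to 533]. Hey1 was also higher outside the epithelium, and it was a leading gene of endothelial-like cluster 3 (247 cells at 0 Gy, 2048 at 4 Gy). Of 11 regulators measured in endothelial-like cells 0 were past the fold. The part of endothelial RNA in the Hey1 value was not tested. Nkx2-1, the lung transcription factor that drives Scgb1a1, stood at 193 and 122 CPM, a ratio of 0.632 [0.391 to 1.03]. Cebpb stood at 697 and 632 CPM and Hes1 at 342 and 287 CPM. Of 10 genes for proteins reported to bind or respond to secretoglobins 2 were measured, and Sdc1, the heparan sulfate carrier syndecan 1, was higher, at 118 and 195 CPM, a ratio of 1.65 [0.985 to 2.9]. Of 13 p53 targets measured, 7 were higher and 0 lower, with a median of 0.70. Cdkn1a stood at 373 and 727 CPM, a ratio of 1.95 [1.47 to 2.62], Phlda3 at 87.1 and 219.6 CPM, a ratio of 2.52 [1.42 to 4.81], and Mdm2 at 249 and 266 CPM. Without the 2 richest cells of each library, 4 of 17 regulators were higher, Hey1 among them, and 2 lower. Nfib, Nkx2-1 and Sdc1 were then past the fold in neither direction. Of the 13 p53 targets 6 were still higher, with Cdkn1a and Phlda3 among them.

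In the alveoli the family was represented differently. In the 54 alveolar type II-like cells of 0 Gy and the 27 of 4 Gy, Scgb1a1 stood at 429 and 274 CPM, a ratio of 0.638 [0.482 to 0.835], with 106 of 207 UMIs at 0 Gy and 44 of 74 at 4 Gy in 1 cell. It had a UMI in 18 of 54 (33.3%) and 13 of 27 (48.1%) of them, and after thinning in 16.7% and 14.8%, the opposite order. Scgb3a2 had 0 UMIs in either, which allows up to 6.6% and 12.8% of cells. Scgb1c1, the fourth family gene, had 29 UMIs in 16 of 54 cells (29.6% [18 to 43.6]) at 0 Gy and 7 UMIs in 7 of 27 (25.9% [11.1 to 46.3]) at 4 Gy. In endothelial-like cells it had 0 UMIs in 4635 and 1 in 3476. Its counts are uncertain because Gm45785 and the antisense gene C330022C24Rik overlap it at chr7:140845547-140846769. In alveolar type I-like cells of the CD45-negative libraries Scgb1a1 and Scgb3a1 had 0 UMIs at both doses.

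**Figure D4:**
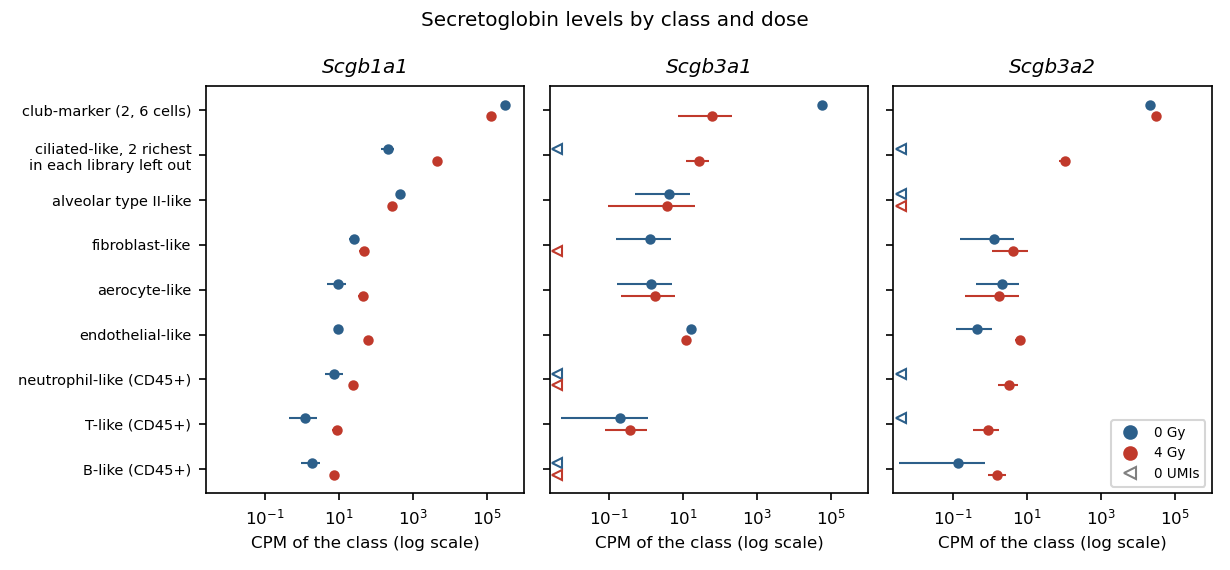
Level of each gene, in CPM of the class (horizontal axis, log scale), in 9 classes (rows) at 0 Gy (blue) and 4 Gy (red), with exact Poisson 95% intervals and open triangles at the left edge for 0 UMIs. Scgb1a1 is red to the right of blue in all rows but the club-marker and alveolar type II-like ones, while Scgb3a1 in endothelial-like cells is somewhat lower at 4 Gy (16.2 and 12.1 CPM).

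Outside the ciliated-like clusters, counting every other cell, the CD45-negative ratios were 0.722 [0.698 to 0.748] for Scgb1a1, 0.0729 [0.0592 to 0.0889] for Scgb3a1 and 2.27 [2.05 to 2.51] for Scgb3a2. The richest 0 Gy barcode is in this sum, and without the cell with the most UMIs in each library the ratio for Scgb1a1 turned to 10.7. Outside the epithelium altogether, a boundary drawn after the data were seen, Scgb1a1 was at a low level in each large class and higher at 4 Gy in both sorts. In CD45-negative cells it stood at 12.1 and 70.7 CPM, a ratio of 5.83 [4.89 to 6.99], and in CD45-positive cells at 3.06 and 10.5 CPM, a ratio of 3.42 [2.63 to 4.52]. Scgb3a2 had 10 and 77 UMIs in CD45-negative and 4 and 38 in CD45-positive cells, ratios of 9.05 [4.67 to 19.6] and 6.55 [2.36 to 25.3]. Scgb3a1 stood at 11.8 and 9.44 CPM in CD45-negative cells, a ratio of 0.8 [0.614 to 1.04]. In the CD45-negative libraries 2 of the 3 genes were at least 1.5-fold higher on CPM + 5, beside 1.42% of 17575 genes (1.01% were lower), and in the CD45-positive ones 1 of 3, beside 1.2% of 18968 (0.285% lower).

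By class, Scgb1a1 stood at 9.47 and 61.7 CPM in endothelial-like cells, a ratio of 6.51 [5.15 to 8.32]. It stood at 9 and 44.2 CPM in aerocyte-like cells, the gas-exchange capillary cells (4.91 [2.63 to 9.84]), and at 25.3 and 46.1 CPM in fibroblast-like cells (1.82 [1.16 to 2.86]). Among leukocytes of the CD45-positive libraries it stood at 7.45 and 23.2 CPM in neutrophil-like (3.11 [1.79 to 5.81]), 1.19 and 8.48 in T-like (7.13 [3.11 to 20.1]), 1.79 and 7.15 in B-like (4 [2.18 to 7.92]) and 9.29 and 13.5 in monocyte or macrophage-like cells (1.46 [0.78 to 2.92]). Each of these classes was higher at 4 Gy, with an interval that includes 1 only in the last. After thinning, Scgb1a1 had a UMI in 0.693% [0.465 to 0.994] and 5.11% [4.38 to 5.92] of endothelial-like cells, 0.182% and 0.647% of B-like and 0.0849% and 0.802% of T-like cells (unthinned 1.45%, 10.9%, 0.361%, 1.81%, 0.413% and 2.72%).

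In the same endothelial-like cells Sftpc, abundant in the same libraries but in other cells, stood at 31.3 and 19 CPM, a ratio of 0.609 [0.495 to 0.745], as it did in the whole CD45-negative libraries (6280 and 4353 CPM, 0.693 [0.686 to 0.701]). Cyp2f2 had 0 and 6 UMIs there. The B-like and T-like classes, which should lack secretoglobins, had lower shares of cells with Scgb1a1 than endothelial-like cells at the same dose. Their median was 2234 to 3879 UMIs per cell against 1784 and 1947 in endothelial-like cells. They were of the CD45-positive libraries, however, and the endothelial-like cells of the CD45-negative ones. Among the few leukocytes of the CD45-negative libraries at 4 Gy, Scgb1a1 was found in 4 of 16 monocyte or macrophage-like and 3 of 22 alveolar macrophage-like cells. At 0 Gy it was found in 0 of 24 and 0 of 18 of these, and in 1 of 26 B-like cells. How much of these low levels is RNA from outside the cell was not tested.

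Scgb3a1 behaved unlike the other two in endothelium. At 0 Gy it made up 62% [55.4 to 68.3] of the secretoglobin UMIs of endothelial-like cells, against 15.4% of those of the whole CD45-negative library, or 26.6% without the rich barcodes. At 4 Gy it made up 15% [12.3 to 18.1], against 4.59%, or 10.1% without them. In the leukocyte library of 0 Gy it was 2.7% [0.329 to 9.42]. Endothelial-like cells had 142 and 95 Scgb3a1 UMIs, 16.2 and 12.1 CPM, a ratio of 0.744 [0.567 to 0.971], in 85 of 4635 (1.83%) and 63 of 3476 (1.81%) cells. Scgb1a1 in these cells was 6.51-fold higher at 4 Gy and Scgb3a2 14.2-fold [5.21 to 54]. Of 15669 genes measured there, 1.99% were at least 1.5-fold higher and 0.849% lower, and Scgb3a1 was in neither set.

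Its highest level was in 1 endothelial cluster, cluster 7, with 88 of 142 UMIs at 0 Gy and 35 of 95 at 4 Gy, where the larger cluster 3 held 47. Cluster 7 was led by Esm1, a proteoglycan gene of activated endothelium, Vwf, Sema3g and Cxcl12. There Scgb3a1 stood at 61.8 CPM [49.6 to 76.2] at 0 Gy and 31 CPM [21.6 to 43.1] at 4 Gy, a ratio of 0.501 [0.329 to 0.749]. Without the 1 cell with 14 UMIs the 0 Gy level was 52.1 CPM. It had a UMI in 48 of 696 (6.9% [5.13 to 9.04]) and 20 of 429 (4.66% [2.87 to 7.11]) cells, and these intervals overlap. In the other endothelial-like clusters together it stood at 7.36 [5.53 to 9.6] and 8.89 [6.78 to 11.4] CPM. Scgb1a1 showed no such pattern, at 5.62 and 63.8 CPM in cluster 7 and 10.2 and 61.3 CPM in the others. In cluster 7, 7.34% of 11688 genes were at least 1.5-fold higher and 4.68% lower, among the latter Scgb3a1. Scgb3a2 had 0 UMIs in cluster 7 at 0 Gy and 9 at 4 Gy. Cluster 0 held 2912 of the 0 Gy and 635 of the 4 Gy cells and cluster 3 held 247 and 2048, and most cells of each thus came from 1 library. Scgb3a1 stood at 4.36 and 2.95 CPM in the former and 22.9 and 9.74 in the latter.

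**Figure D5:**
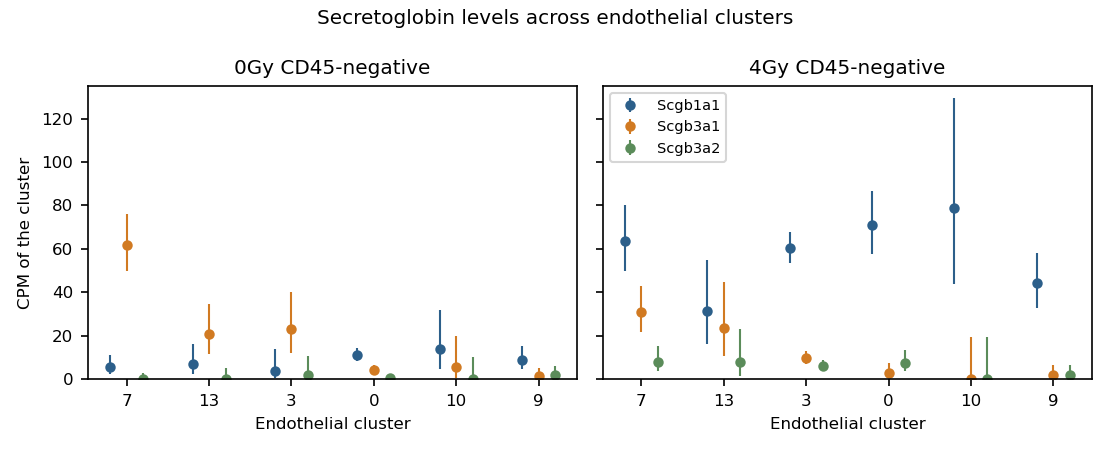
Level of Scgb1a1, Scgb3a1 and Scgb3a2 (vertical axis, CPM of the cluster) in 5 endothelial-like clusters and the aerocyte-like cluster 9 (horizontal axis) at 0 Gy and 4 Gy, with exact Poisson 95% intervals. Scgb3a1 is highest in cluster 7 at 0 Gy (61.8 CPM), whereas Scgb1a1 is low in each cluster at 0 Gy and between 31.4 and 78.6 CPM in each at 4 Gy.

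The endothelial cells with a Scgb3a1 UMI carried endothelial markers. Pecam1, an adhesion molecule of endothelium, stood at 1243 CPM in them and 1291 CPM in the other endothelial-like cells at 0 Gy, and at 1113 and 1222 CPM at 4 Gy. Cdh5, the cadherin of endothelial junctions, was somewhat lower in them, with ratios of 0.851 [0.757 to 0.954] and 0.852 [0.747 to 0.969]. A Scgb1a1 UMI was found in 1 of 85 (1.18%) of them at 0 Gy and 8 of 63 (12.7%) at 4 Gy, against 1.45% and 10.9% of the others. Esm1 and Cxcr4, a chemokine receptor gene, were higher in them in both libraries, chosen among 8 such genes after the values were seen. Esm1 stood at 621 CPM against 45 in the others at 0 Gy, with a UMI in 34.1% against 3.89% of cells, and at 454 against 86.7 CPM at 4 Gy (27% against 6.09%). Cxcr4 was found in 27.1% against 5.03% of cells at 0 Gy and 34.9% against 6.04% at 4 Gy. Within cluster 7 alone, Esm1 was found in 45.8% against 20.4% and 55% against 25.4%, and Cxcr4 in 37.5% against 17.7% and 55% against 19.8%. Flt4, the neighbouring gene on the same strand, had ratios of 1.36 [0.788 to 2.2] and 1.44 [0.904 to 2.17] between these cells and the others, which include 1. Cnot6, the nearer neighbour, had ratios of 1.34 [0.824 to 2.06] at 0 Gy and 1.95 [1.32 to 2.8] at 4 Gy, and the latter interval does not include 1.

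Across the 36 clusters of all libraries together, each member had another member among the 5 genes most like it, though Scgb3a1 was not among those of Scgb1a1. By Pearson's r of log2(CPM + 10) over clusters that share libraries and depth, a description, Scgb3a1 was most like Bpifb1 (0.97), Scgb3a2 (0.94), Muc5b (0.92), Bpifa1 (0.91) and Scgb1a1 (0.87) among 18010 genes. Scgb3a2 was most like Scgb3a1 (0.94), Lypd2 (0.92), Muc5b (0.92), Bpifb1 (0.92) and Scgb1a1 (0.91). Scgb1a1 was most like Slc16a11 (0.96), Kcnk2 (0.92), Scgb3a2 (0.91), 1810010H24Rik (0.90) and Cyp2f2 (0.88). Because 1 to 3 clusters with the rich barcodes set these values, they show which genes those barcodes shared.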

How the data were processed

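Single-cell 3′ libraries of sorted lung cells were used, 1 table per library. Per the submitters' processing notes, STAR, Partek, Seurat and mm10 were used, with roles and versions not given in the sources used here. Values as deposited are log2(CPM + 1), made by the authors: in each cell the CPM summed to 999974 to 1000028, and 99.9993% to 99.9996% of values were whole multiples of 1 UMI within a tolerance of 0.02, from which UMIs were taken. Groups come from the labels. Doublets (286, 149, 235 and 608 barcodes of CD45-negative 0 Gy and 4 Gy and CD45-positive 0 Gy and 4 Gy) were scored with Scrublet in scanpy 1.11.5. In 3 libraries its automatic threshold marked under 0.5%, so the barcodes with the highest scores were removed there, to the number expected at 0.8% per 1000 cells.

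The 24037 cells kept were clustered (Leiden, resolution 1), with epithelial clusters clustered again and the 3 genes left out of the variable genes and markers. Names ending in "-like" rest on markers alone. Ratios carry exact conditional binomial, levels exact Poisson and shares exact (Clopper-Pearson) 95% intervals. Only the ratio intervals and the 1.5-fold call were checked on simulated data. Those data were summed counts without spread between cells, so the check does not cover sums that few cells set. List genes had at least 10 UMIs over both libraries. Low folds used CPM + 5, and folds against 0 a floor of 3 UMIs. The rule for naming genes from the lists was those with most UMIs and those past 1.5-fold with an interval without 1. Not every gene that met it is given, and some others are named as examples. The rule was written for a club-like class and was applied to the ciliated-like one. Members and lists were chosen with earlier results of these data known. Alternatives were other scalings, thinning, clusterings, gates and left-out cells.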

Additional observations from a re-analysis of the deposited data

Results flagged for a closer look

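Scgb3a1 went opposite ways in the sorts, which was not tested since each group is 1 library. Over whole libraries its ratio of 4 Gy to 0 Gy was 0.479 for CD45-negative and 45.8 for CD45-positive cells. The CD45-negative ratio depended on single barcodes. Without the richest cell of each library it was 3.21, with 286 of the 4 Gy UMIs left in the second leading barcode. Without all rich barcodes it stayed below 1, as given above. Outside the ciliated-like clusters it was 0.0729 and 45.8, and outside the epithelium 0.8 and 2.76, the last from 2 and 8 UMIs. Scgb1a1 did the same outside the ciliated-like clusters, at 0.722 and 45.9, where the former was 10.7 without the richest cell of each library. Outside the epithelium its ratios were 5.83 and 3.42, on the same side of 1 in both sorts.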

How the results depend on the processing

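No paired analysis was possible because each group is 1 library. Of the ratios, shares and counts that answer a comparison, 66 recomputed values stayed within their counting interval, 29 moved and 7 changed direction. For gene by gene values the numbers were 118, 57 and 8. For all 3 genes in the whole CD45-negative libraries (ratio 1.61), median-of-ratios scaling gave 1.56, the mean over cells 4.45, thinning 4.05, leaving out the richest cell of each library 20.3, and leaving out the rich barcodes 2.35. Without the richest cell the Scgb3a1 ratio turned to 3.21. For the CD45-positive libraries (48.1) the last 2 settings gave 14.3 and 3.56. In ciliated-like cells (32.5), thinning gave 20.6, leaving out 1 or 2 richest cells 41.4 and 22.2, and a gate of at least 3 club or ciliated markers 1.37. In club-marker cells the ratio turned to 0.418 (Scgb1a1 0.424).

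Outside the ciliated-like clusters (CD45-negative, 0.706), the ratio was 0.682 with at least 500 genes per cell. It turned to 3.32 as a mean over cells, 2.94 thinned, 9.42 without the richest cell, 3.1 with the gate of 3 markers, 2.6 without cells of at least 10 UMIs and 3.54 outside the epithelium (Scgb1a1, in the same order, 3.66, 3.31, 10.7, 4.96, 3.62 and 5.83). The CD45-positive value (48.1) was 14.3 without the richest cell and 3.46, 3.54 and 3.58 in the last 3. Outside the epithelium, the CD45-negative ratio (3.54) was 4.32 thinned and 2.82 without cells of at least 10 UMIs. The CD45-positive one (3.58) was 5.18 with doublets kept, 5.1 as a mean over cells and 4.83 thinned. The gate of 3 markers gave a ratio of airway cell shares of 1.12. At resolution 2 Scgb3a1 made up 54.1% of secretoglobin UMIs outside the epithelium at 0 Gy (47.7% at resolution 1). The defence list's median was 0.69 with 50 CPM added and 0.43 with at least 30 UMIs, which left 5 genes higher, and the detoxification median was 0.32 and 0.26, also with 5 higher. Club-like clusters alone gave no value. The causes of these shifts were not tested, apart from the left-out cells, which held the UMIs named. Values on club-marker cells rest on 0 to 6 cells a library.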
